A study of Mus musculus with 14 samples.

Results

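Transforming growth factor beta (TGF-beta), the bone morphogenetic proteins (BMPs), the activins and the growth differentiation factors (GDFs) form 1 family of secreted ligands, and the genes described here are those ligands, their receptors and the SMAD proteins that carry their signal to the nucleus. The 47 genes were chosen by symbol alone, out of 19937 genes with 1 symbol on the array: Tgfb1 to Tgfb3, Tgfbr1 to Tgfbr3, the Bmp, Bmpr, Acvr, Inh and Smad genes, and the Gdf genes. Each was measured by 1 probe set. A probe set shared by Cers1 and Gdf1 carries 2 symbols and was not counted among them.

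The tissue was epididymal fat, the visceral depot beside the epididymis, and it was profiled on 14 Affymetrix arrays, all from male mice. EKO mice, which the labels tie to apolipoprotein E and place on a C57BL6/J background, ate a Western diet (HFD, 42% anhydrous milk fat, n = 4) or a normal diet (ND, n = 4). Wild type (WT) C57BL6/J mice ate the same HFD (n = 3) or ND (n = 3). All mice were on their diet for 24 weeks from 8 weeks of age. The pad was taken whole, so the RNA comes from adipocytes, macrophages, vessels, the mesothelium on the surface and other cells together. In such bulk tissue, fewer cells of a type and less RNA per cell cannot be told apart.

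A level here is the deposited log2 value made by robust multi-array averaging (RMA), and ± beside a group mean is the SD. For a log2 fold change, which is EKO minus WT or HFD minus ND, the value after ± is the standard error. A gene passed at an adjusted p under 0.05 over all 19937 genes (limma, two-sided). Apoe levels (log2) lay between 9.46 and 10.26 in the EKO arrays and between 13.13 and 13.65 in the WT arrays, so the genotype labels matched the gene on every array. The adipocyte genes Adipoq and Plin1 had levels of 12.84 to 13.55 and 13.29 to 13.58 over the 14 arrays, while the mean level of 11 epididymis markers was 6.64 to 6.98, close to the array background of 6.29 to 6.84. That background, the mean of 1204 olfactory and vomeronasal receptor rows, set apart 5 arrays (6.75 to 6.84) from the other 9 (6.29 to 6.56), with arrays of both kinds in every group. In WT mice the 9 held only replicates 2 and 3 of each diet. In EKO mice they held ND replicates 1, 3 and 4 and HFD replicates 2 and 4. Fits to the 9 arrays alone thus rest on very few arrays a group. Of the 47 genes, 44 lay above the background of their own array on all 14 arrays. The oocyte factor gene Bmp15 did so on 12 arrays, and the BMP receptor gene Bmpr1b and the cardiac ligand gene Bmp10 on 0.

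Ligands of the family bind pairs of type I and type II receptor kinases, and the type I receptor then phosphorylates a receptor-regulated SMAD. TGF-beta and activins act mainly through SMAD2 and SMAD3, BMPs through SMAD1, SMAD5 and SMAD9 (also called SMAD8). SMAD4 is the shared partner, and SMAD6 and SMAD7 are inhibitors. In fat, BMPs are known for steering progenitor cells towards adipocytes, TGF-beta for matrix production by fibroblasts, and the type I receptor ALK7, encoded by Acvr1c, for restraining fat breakdown in mature adipocytes of mice.

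Acvr1c and Smad9 carry the differences that held in every alternative analysis that tested them, the first for diet in WT and the second for genotype on HFD. The 250 bases before a listed start of each gene are shown so that the proximal sequence can be read beside their levels. They come from RefSeq (GRCm38.p6), run 5′ to 3′ on the strand of the gene, and are chr2:58357759-58358008 on the minus strand for Acvr1c (the upstream one of 2 listed starts) and chr3:54755332-54755581 on the plus strand for Smad9. The annotated genes begin further upstream than these listed starts, at 58357896 for Acvr1c and 54755455 for Smad9. Each stretch thus lies partly inside its annotated gene. Capitals mark the GC-rich SMAD motif GGCGCC.
Acvr1c: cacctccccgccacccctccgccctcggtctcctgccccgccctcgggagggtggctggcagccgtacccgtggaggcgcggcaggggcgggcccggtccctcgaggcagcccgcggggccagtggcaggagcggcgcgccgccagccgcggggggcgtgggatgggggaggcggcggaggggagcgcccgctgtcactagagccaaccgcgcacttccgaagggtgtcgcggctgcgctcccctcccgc
Smad9: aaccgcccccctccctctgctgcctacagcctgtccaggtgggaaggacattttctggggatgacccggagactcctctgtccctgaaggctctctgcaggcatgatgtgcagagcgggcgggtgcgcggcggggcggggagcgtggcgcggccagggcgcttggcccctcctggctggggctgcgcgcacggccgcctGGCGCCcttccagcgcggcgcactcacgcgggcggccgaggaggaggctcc
The Smad9 stretch holds GGCGCC 1 time, and the Acvr1c stretch holds none. The first base of that match is at -51 from the listed start, within the annotated Smad9 gene. GGCGCC was found on either strand in 9.59% of 32851 mouse promoters of this length and in 12.8% of 39 promoters of the genes described here. CAGAC, the short SMAD motif (GTCTG on the other strand), was in neither stretch, and it occurs in 42.2% of all promoters and 41.0% of those 39. The palindrome GTCTAGAC was in neither stretch and in 0.167% of all promoters. These are matches of letters only. Of the 47 genes, 33 had an entry in the promoter table.

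**Figure D1:**
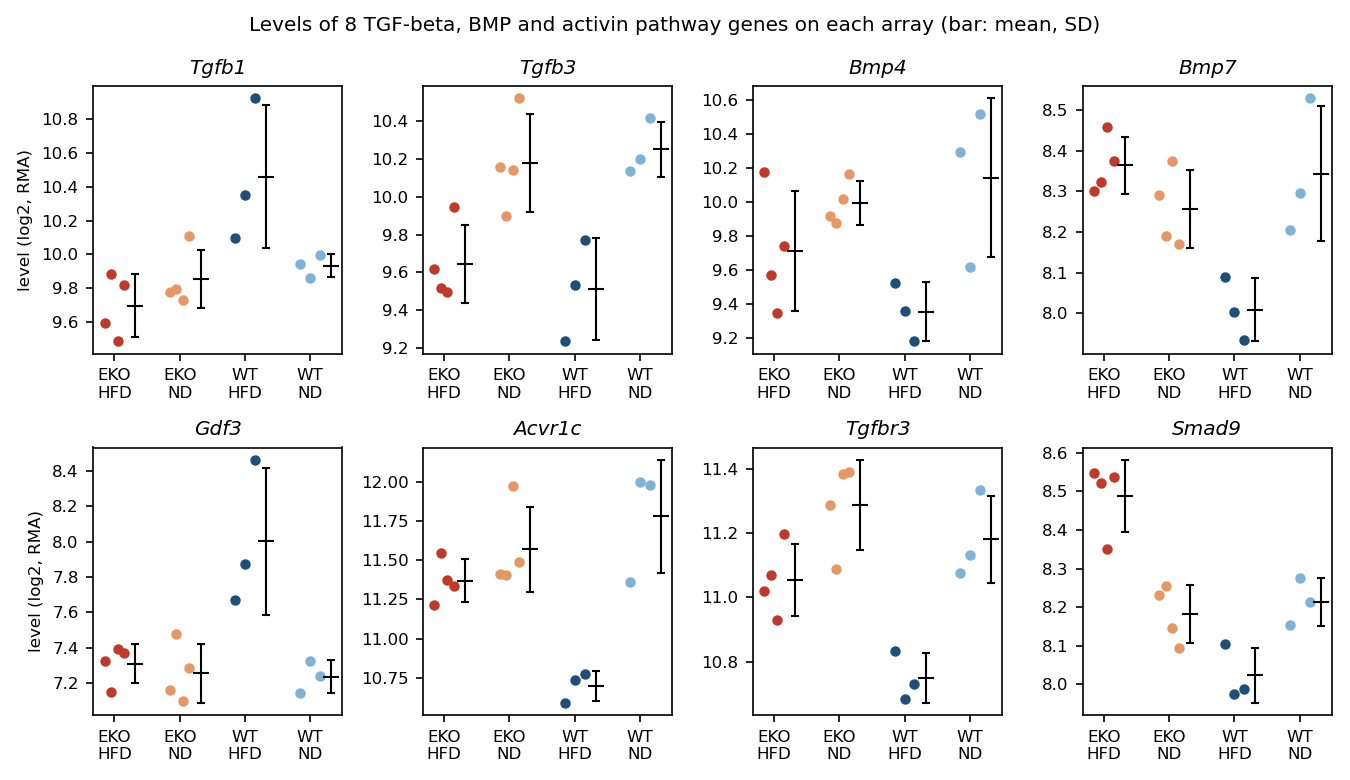
Levels (log2, RMA) of 8 genes on each of the 14 arrays, by group, with the mean and SD beside the points. Acvr1c lies at 10.59 to 10.77 in WT mice on HFD and above 11.2 in the other groups, Gdf3 at 7.67 to 8.46 in WT mice on HFD and below 7.5 elsewhere, and Smad9 at 8.35 to 8.55 in EKO mice on HFD.

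The first question is what the Western diet did to these genes in WT fat. The ligand gene Gdf3 rose, and the ligand genes Tgfb3 and Bmp4, the ALK7 gene Acvr1c and the coreceptor gene Tgfbr3 fell. These are 1 rise and 4 falls among 47 genes, 10.6% of them, where 5.49% of all genes passed in this comparison (3.19% rose and 2.3% fell). The median log2 fold change of the 47 genes was -0.08, against -0.02 over all genes. An unadjusted p under 0.05 was reached by 17 of the 47 (36.2%), against 16.9% of all genes, and the groups did not overlap for 21 (44.7%), against 20% of all genes. The 21 include Bmpr1b, which lay above the background of its own array on 0 arrays.

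Acvr1c (probe set 10482814) had levels (log2) of 10.59, 10.74 and 10.77 in WT mice on HFD, against 11.36, 12.00 and 11.98 in WT mice on ND. All 3 HFD arrays lay below every ND array. Acvr1c fell by 1.08 ± 0.17 on the log2 scale, a 2.11-fold lower value, adjusted p = 0.00227, the largest change in size among the 47 genes. In EKO mice the levels were 11.22, 11.55, 11.37 and 11.34 on HFD and 11.41, 11.40, 11.97 and 11.49 on ND. Those groups overlapped, and the log2 fold change of -0.20 ± 0.15 did not pass (adjusted p = 0.946). The difference between the diet effects, EKO minus WT, was 0.88 ± 0.23 (log2; 95% interval 0.39 to 1.37), adjusted p = 0.118. That adjusted p came to 0.0447 when only the 9 arrays of lower background were used, and to 0.0232 with the background set as a block. The difference passed in 5 of 24 alternatives, with adjusted p up to 0.293.

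Gdf3, which encodes a ligand that can act through ALK7 in mice, moved the other way. Its levels (probe set 10547633, log2) were 7.67, 7.87 and 8.46 in WT mice on HFD, against 7.14, 7.33 and 7.24 in WT mice on ND. The HFD arrays were all higher, and they were also the more spread out. Gdf3 rose by 0.76 ± 0.16 (log2), or 1.70-fold, adjusted p = 0.0133. The EKO levels were 7.33, 7.15, 7.39 and 7.37 on HFD and 7.16, 7.48, 7.10 and 7.29 on ND. Here the diet groups overlapped, and the log2 fold change was 0.05 ± 0.14 (adjusted p = 0.968). The difference between the diet effects was -0.71 ± 0.22 (log2; 95% interval -1.17 to -0.25), adjusted p = 0.184.

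Of the 3 TGF-beta genes, Tgfb3 alone passed. Tgfb3 (probe set 10401673) had levels (log2) of 9.24, 9.53 and 9.77 in WT mice on HFD, against 10.14, 10.20 and 10.42 in WT mice on ND. The groups were apart, and Tgfb3 fell by 0.74 ± 0.17 (log2), adjusted p = 0.0194. EKO mice had 9.62, 9.52, 9.50 and 9.95 on HFD, against 10.16, 9.90, 10.14 and 10.52 on ND. Only the highest HFD array reached into the ND range, with a log2 fold change of -0.54 ± 0.15 and an unadjusted p of 0.0024, which did not pass (adjusted p = 0.695). Tgfb2 had mean levels (log2) of 8.33 ± 0.15 on HFD and 8.64 ± 0.16 on ND in WT mice (n = 3 each). Its log2 fold change was -0.26 ± 0.11 in EKO mice (adjusted p = 0.946) and -0.30 ± 0.13 in WT mice (adjusted p = 0.24). Tgfb1, the isoform made by many immune cells, had levels of 10.10, 10.35 and 10.93 in WT mice on HFD, against 9.94, 9.86 and 10.00 in WT mice on ND. The WT groups were apart, but the log2 fold change of 0.53 ± 0.17 did not pass (adjusted p = 0.105). In EKO mice it was -0.16 ± 0.15 (adjusted p = 0.946).

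Among the BMP genes, 1 of 10 passed. Bmp4 (probe set 10419261), known for committing progenitors to the adipocyte lineage, had levels (log2) of 9.52, 9.36 and 9.18 in WT mice on HFD, against 10.30, 9.62 and 10.52 in WT mice on ND. All HFD arrays were lower, although 1 ND array lay close to them. Bmp4 fell by 0.79 ± 0.22 (log2), adjusted p = 0.0474, and in EKO mice its log2 fold change was -0.29 ± 0.19 (adjusted p = 0.946). Bmp7, known for promoting brown fat, had levels of 8.09, 8.00 and 7.93 on HFD, against 8.21, 8.30 and 8.53 on ND in WT mice. Its log2 fold change was -0.33 ± 0.10 (adjusted p = 0.0611). Bmp2, Bmp3 and Bmp6 had log2 fold changes of -0.30 ± 0.13, 0.65 ± 0.30 and -0.40 ± 0.16 in WT mice and did not pass (adjusted p = 0.267, 0.285 and 0.197). Bmp5, Bmp8a, Bmp8b, Bmp10 and Bmp15 lay between -0.18 and 0.07. Bmp8a and Bmp8b are near-identical copies whose probes may not tell them apart.

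Of the 5 activin and inhibin subunit genes and the 8 GDF genes, Gdf3 alone passed. Inhbb, which encodes the activin B subunit, had mean levels (log2) of 9.42 ± 0.12 on HFD and 9.13 ± 0.27 on ND in EKO mice (n = 4 each). WT mice had 9.67 ± 0.13 on HFD and 9.35 ± 0.09 on ND (n = 3 each). The log2 fold changes were 0.29 ± 0.12 in EKO (adjusted p = 0.946) and 0.32 ± 0.14 in WT (adjusted p = 0.24). Inhba, the activin A subunit, had 0.02 ± 0.07 in EKO and -0.11 ± 0.08 in WT. Gdf10, a ligand related to BMP3, had -0.30 ± 0.12 in WT (adjusted p = 0.2). The inhibin alpha gene Inha and the further beta subunit genes Inhbc and Inhbe had log2 fold changes of -0.20, 0.01 and -0.08 in WT. Gdf2, Gdf5, Gdf6, Gdf7, Gdf9 and Gdf11 lay between -0.06 and 0.12 in EKO and between -0.14 and 0.06 in WT.

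Tgfbr3, which encodes betaglycan, a coreceptor that presents TGF-beta2 and inhibin, was the other receptor gene to pass. Its levels (probe set 10532085, log2) were 10.83, 10.68 and 10.73 in WT mice on HFD, against 11.08, 11.13 and 11.33 in WT mice on ND. The groups were apart, and Tgfbr3 fell by 0.43 ± 0.11 (log2), adjusted p = 0.0275. EKO mice had 11.02, 11.07, 10.93 and 11.20 on HFD, against 11.29, 11.09, 11.39 and 11.39 on ND. The EKO groups overlapped by 1 array of each diet, and the log2 fold change was -0.23 ± 0.09 (adjusted p = 0.946). The activin receptor gene Acvr1b (ALK4) had levels of 9.26, 10.16 and 10.29 in WT mice on HFD, against 9.12, 9.62 and 9.24 in WT mice on ND. It had a log2 fold change of 0.58 ± 0.24 (adjusted p = 0.226), with 1 HFD array in the ND range.

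The shared signalling core did not pass. The TGF-beta receptor genes Tgfbr1 and Tgfbr2 had log2 fold changes in WT of 0.19 (95% interval -0.21 to 0.58) and 0.02 (-0.27 to 0.31). For the BMP receptor genes Bmpr1a and Bmpr2 they were 0.14 (-0.23 to 0.52) and -0.08 (-0.33 to 0.17). Smad2, Smad3 and Smad4 had 0.11 (-0.16 to 0.38), 0.14 (-0.22 to 0.49) and -0.14 (-0.35 to 0.08). Changes beyond these bounds in either direction are outside the intervals, while changes within them are not excluded with 3 arrays a group. Acvr1 (ALK2), Acvrl1 (ALK1), Acvr2a and Acvr2b had -0.30, 0.04, 0.05 and -0.21, and the inhibitory Smad6 and Smad7 had 0.16 and 0.10. Of the 8 SMAD genes 0 passed in WT.

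Without single WT arrays the count of 5 came to 5, 3 and 1 (ND replicates 1, 2 and 3) and to 6, 2 and 3 (HFD replicates 1, 2 and 3), and Acvr1c passed in all of these. With only the 6 WT arrays in the fit Acvr1c alone passed (adjusted p = 0.0247), and within the 9 arrays of lower background Bmp4 did not (log2 fold change -0.80 ± 0.23, adjusted p = 0.0583), while the other 4 did, with -1.23 ± 0.17 for Acvr1c, 0.88 ± 0.17 for Gdf3, -0.66 ± 0.18 for Tgfb3 and -0.53 ± 0.10 for Tgfbr3.

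**Figure D2:**
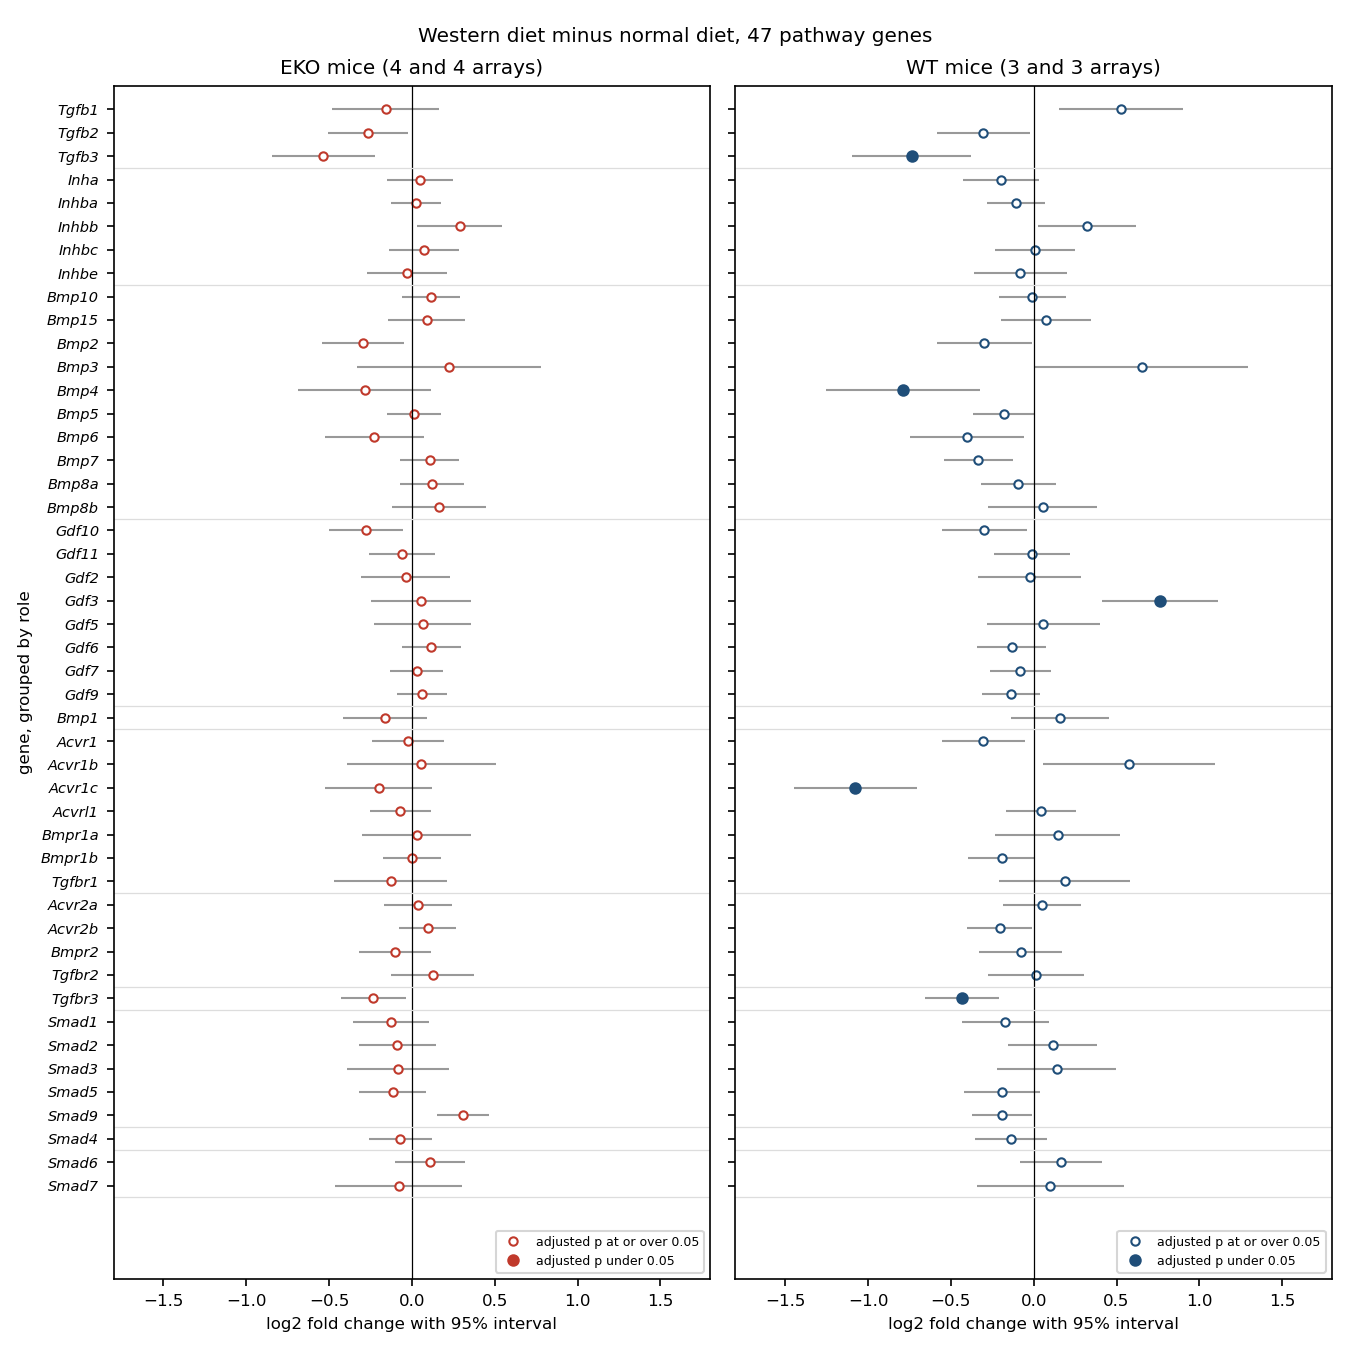
Log2 fold change of HFD minus ND with its 95% interval for the 47 genes, grouped by role, in EKO mice (left) and WT mice (right); filled points have an adjusted p under 0.05. The 5 filled points, Tgfb3, Bmp4, Gdf3, Acvr1c and Tgfbr3, are all in the WT panel.

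In EKO mice 0 of the 47 genes passed for the same diet contrast, and 0% of all genes did (limma). At an unadjusted p under 0.05 there were 7 of the 47 (14.9%), against 4.43% of all genes. Those 7 were Smad9, Tgfb3, Gdf10, Tgfbr3, Bmp2, Inhbb and Tgfb2. Smad9, which encodes a SMAD of the BMP branch, had levels (probe set 10492091, log2) of 8.55, 8.52, 8.35 and 8.54 in EKO mice on HFD, against 8.23, 8.26, 8.14 and 8.09 in EKO mice on ND. All HFD arrays lay above all ND arrays, and the diet groups did not overlap for 1 of the 47 genes (2.13%) and for 2.56% of all genes. The log2 fold change was 0.31 ± 0.07, with an unadjusted p of 0.000886 and an adjusted p = 0.542. In WT mice Smad9 had 8.10, 7.98 and 7.99 on HFD, against 8.15, 8.28 and 8.21 on ND. The WT value thus ran the other way, with a log2 fold change of -0.19 ± 0.08 (adjusted p = 0.259).

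Gdf10 had levels (log2) of 9.69, 9.56, 9.74 and 9.98 in EKO mice on HFD, against 9.98, 9.90, 10.12 and 10.08 in EKO mice on ND, and it had a log2 fold change of -0.28 ± 0.10 (adjusted p = 0.946). Only the highest HFD array reached the ND range. For 6 of the 7 genes the estimates in both genotypes had the same sign. The difference between the diet effects (log2, EKO minus WT) was 0.20 for Tgfb3 (95% interval -0.27 to 0.68), 0.04 for Tgfb2 (-0.33 to 0.41), 0.02 for Gdf10 (-0.32 to 0.36), 0.00 for Bmp2 (-0.38 to 0.38), 0.20 for Tgfbr3 (-0.10 to 0.50) and -0.03 for Inhbb (-0.42 to 0.36). These 6 were picked after their values were seen, and the intervals do not show that the diet effects were alike.

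Whether the diet effect depended on genotype was tested as that difference for every gene. Among the 47 genes 0 passed, where 0.482% of all genes did, and 6 had an unadjusted p under 0.05 (12.8%, against 10.8% of all genes). The smallest p belonged to Smad9, with a difference of 0.50 ± 0.11 (log2; 95% interval 0.26 to 0.74), adjusted p = 0.0689. Next came Acvr1c, given above, and Bmp7, with 0.44 ± 0.13 (log2), adjusted p = 0.163. The Smad9 difference was 0.50 ± 0.11 with an adjusted p = 0.0324 when the background set was a block, and 0.63 ± 0.12 with an adjusted p = 0.0286 within the 9 arrays of lower background. It passed in 5 of 23 alternatives, with adjusted p up to 0.206, and the Bmp7 difference in 1 of 23. Acvr1c was the 1 gene to pass without WT ND replicate 1, and Gdf3, Smad9 and Tgfb1 passed without WT HFD replicate 1.

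On ND, EKO and WT fat did not differ detectably in any of the 47 genes. None passed, where 0.00502% of all genes did (Apoe alone), and 0 had an unadjusted p under 0.05, against 1.13% of all genes. The genotypes were fully apart on ND for 0 of the 47, against 1.72% of all genes. The 3 smallest p values belonged to Inhbb, Gdf9 and Acvr1c. Inhbb had levels (log2) of 9.02, 8.86, 9.13 and 9.50 in EKO mice, against 9.41, 9.39 and 9.25 in WT mice. The groups overlapped, and the log2 fold change was -0.22 ± 0.13 (95% interval -0.50 to 0.05). Gdf9, known as an oocyte factor, had 7.18, 7.34, 7.21 and 7.21 in EKO mice, against 7.36, 7.33 and 7.31 in WT mice (-0.10 ± 0.08 on the log2 scale). The log2 fold change of Acvr1c was -0.21 ± 0.16 (95% interval -0.56 to 0.14). All 3 had an adjusted p = 1.

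On HFD, by contrast, 5 of the 47 genes passed between the genotypes: Smad9, Acvr1c and Bmp7 were higher in EKO, and Tgfb1 and Gdf3 were lower. That is 10.6% of the genes, where 5.69% of all genes passed (1.64% higher and 4.05% lower). The median log2 fold change was 0.07, against 0.03 over all genes. An unadjusted p under 0.05 was reached by 12 of the 47 (25.5%), against 19.3% of all genes, and the groups did not overlap for 12 (25.5%), against 16.6% of all genes. Bmpr1b, above the background of its own array on 0 arrays, is among the 12 that did not overlap. This comparison and the diet comparison in WT share the 3 WT arrays on HFD, so their values are not independent.

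**Figure D3:**
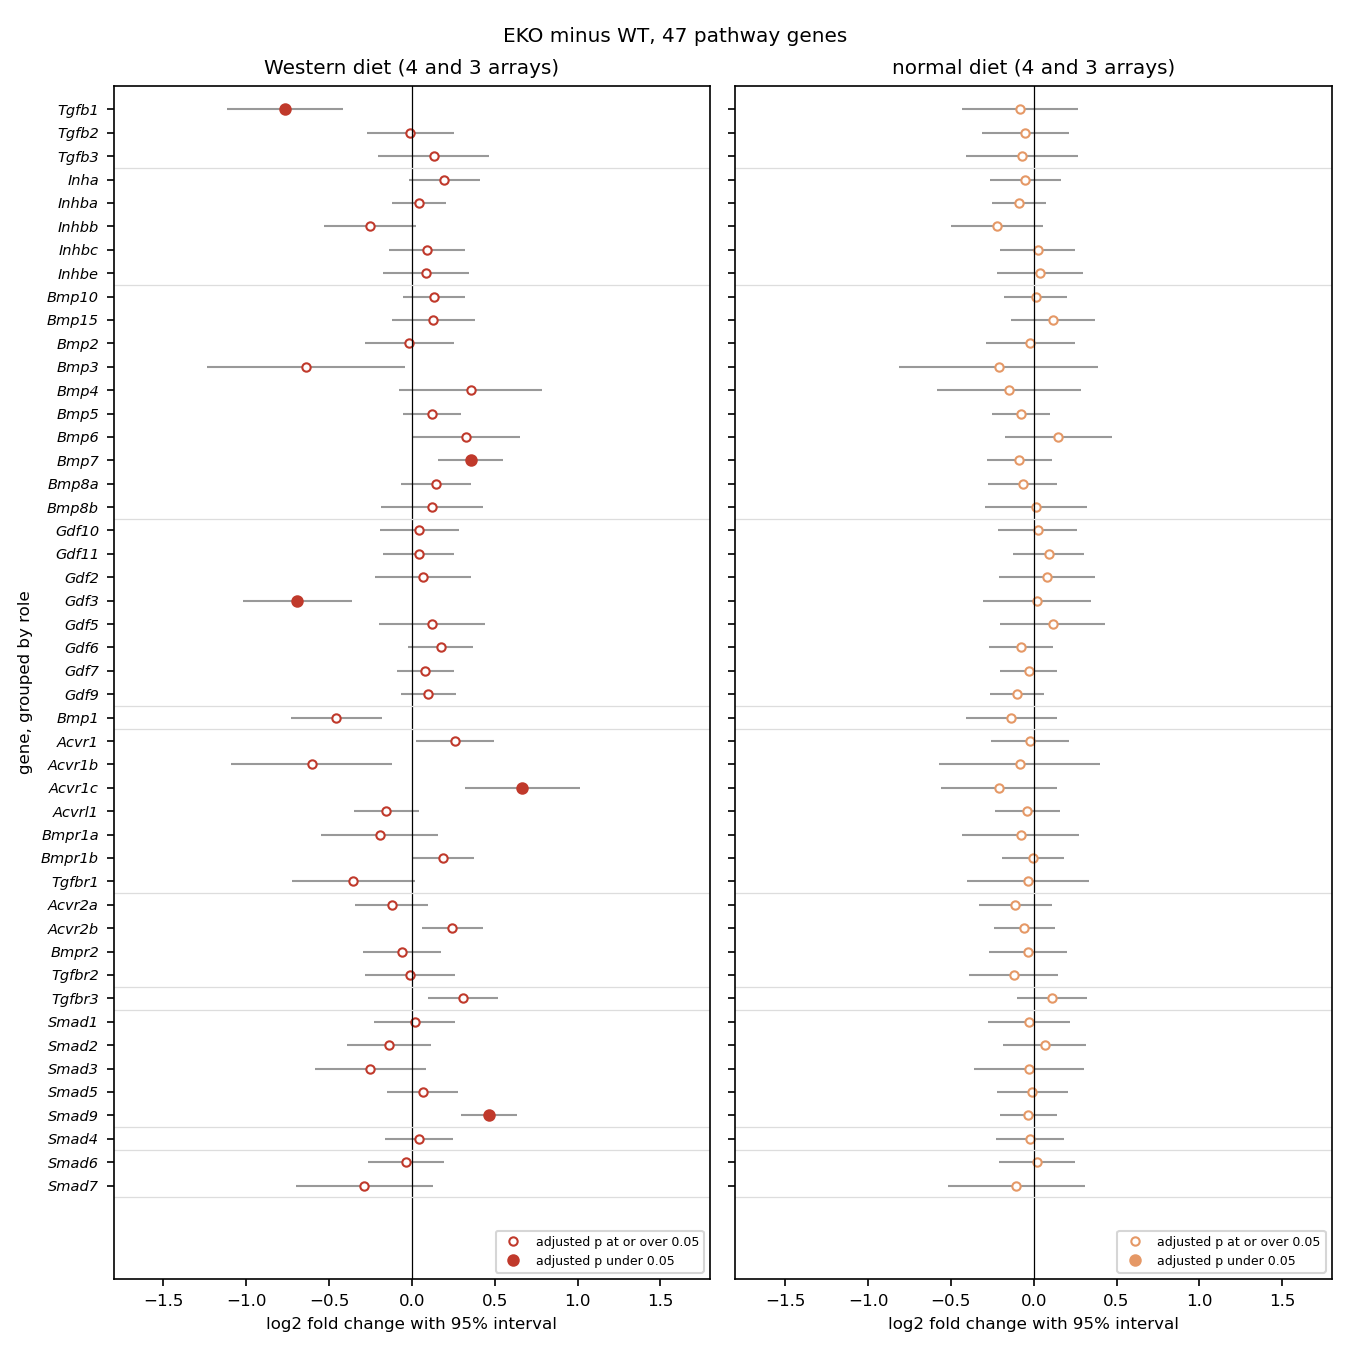
Log2 fold change of EKO minus WT with its 95% interval for the 47 genes, grouped by role, on HFD (left) and ND (right); filled points have an adjusted p under 0.05. Filled points for Smad9, Acvr1c and Bmp7 lie right of 0 and those for Tgfb1 and Gdf3 left of 0 on HFD, and there are none on ND.

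Smad9 had the smallest p of the 47. On HFD the 4 EKO arrays (8.35 to 8.55, log2) all lay above the 3 WT arrays (7.98 to 8.10), and the EKO arrays on HFD were also above every array of the other 3 groups. The log2 fold change was 0.47 ± 0.08, or 1.38-fold, adjusted p = 0.00364. It was 0.55 ± 0.09 (adjusted p = 0.00622) within the arrays of lower background. The other SMAD genes of the BMP branch, Smad1 and Smad5, did not pass.

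Tgfb1 (probe set 10551185) had levels (log2) of 9.59, 9.88, 9.48 and 9.82 in EKO mice on HFD, against 10.10, 10.35 and 10.93 in WT mice on HFD. Every EKO array was lower, and the WT arrays spread widely. The log2 fold change was -0.76 ± 0.16, adjusted p = 0.0137, and -0.79 ± 0.18 within the arrays of lower background. Gdf3 had a log2 fold change of -0.69 ± 0.15, adjusted p = 0.0164, and -0.91 ± 0.17 within those arrays. Its 4 EKO arrays on HFD reached 7.39, and its WT arrays on HFD began at 7.67.

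Acvr1c was 0.67 ± 0.16 higher (log2) in EKO mice on HFD, or 1.59-fold, adjusted p = 0.0272. Its lowest EKO array on HFD (11.22) was above the highest WT array on HFD (10.77). Bmp7 (probe set 10490129) had levels (log2) of 8.30, 8.32, 8.46 and 8.37 in EKO mice on HFD, against 8.09, 8.00 and 7.93 in WT mice on HFD. The groups were apart by a small step, and the log2 fold change was 0.35 ± 0.09, adjusted p = 0.0346. The log2 fold change was 0.69 ± 0.17 for Acvr1c (adjusted p = 0.0364) and 0.38 ± 0.11 for Bmp7 (adjusted p = 0.064) within the arrays of lower background.

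Bmp1, which despite its name encodes a protease that trims procollagen and frees BMPs from their inhibitors, had levels (log2) of 10.32, 10.42, 10.44 and 10.49 in EKO mice on HFD. WT mice on HFD had 10.76, 10.93 and 10.93. The groups were apart, but the log2 fold change of -0.46 ± 0.13 lay just outside the threshold (adjusted p = 0.0524). Tgfbr3 also lay outside it, with 0.31 ± 0.10 (log2) and an adjusted p = 0.0902. Tgfb3, Tgfb2, Gdf10 and Bmp2 had log2 fold changes of 0.13, -0.01, 0.05 and -0.02 between the genotypes on HFD, none of which passed.

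Without single arrays the count of 5 came to 7, 3 and 1 (WT HFD replicates 1, 2 and 3) and to 4, 3, 3 and 3 (EKO HFD replicates 1 to 4), and Smad9 passed in all of these. With only the 7 arrays of this comparison in the fit, Gdf3 (adjusted p = 0.0528) and Bmp7 (adjusted p = 0.0573) did not pass.

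Genes that act around the pathway were read from 3 lists written from general knowledge, of ligand traps and other extracellular regulators (29 measured), of coreceptors, further ligands and intracellular regulators (28), and of target genes (28). The lists were set with earlier results of these data known, and Ltbp2 is on both the first and the last. In WT mice on HFD, 0 of the 29 extracellular regulators rose and 1 fell, where 3.19% of all genes rose and 2.3% fell. The gene that fell was Chrdl1, a secreted BMP antagonist. Its levels (log2) were 10.78, 10.37 and 10.17 in WT mice on HFD, against 11.30, 11.47 and 11.98 in WT mice on ND. Every HFD array was lower, and Chrdl1 fell by 1.14 ± 0.19 (log2), adjusted p = 0.00336. EKO mice had mean levels of 11.53 ± 0.27 on HFD and 11.58 ± 0.16 on ND (n = 4 each). The EKO over WT log2 fold change on HFD was 1.09 ± 0.18, adjusted p = 0.00312. In that comparison 1 of the 29 was higher and 1 lower, where 1.64% of all genes were higher and 4.05% lower. The lower one, the secreted glycoprotein gene Fstl1, had mean levels of 11.02 ± 0.28 in EKO mice (n = 4) and 11.70 ± 0.15 in WT mice (n = 3). Its log2 fold change was -0.68 ± 0.17 (adjusted p = 0.0331).

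Of the 28 coreceptors, further ligands and intracellular regulators, 3 rose in WT mice on HFD and 0 fell, where 3.19% of all genes rose and 2.3% fell. Nedd4l, a ubiquitin ligase that acts on activated SMAD proteins, rose by 1.01 ± 0.16 (log2), adjusted p = 0.00174. Pmepa1, a TGF-beta-induced feedback inhibitor, rose by 0.83 ± 0.18. The myostatin gene Mstn, a ligand of muscle, had levels (log2) of 7.19, 7.75 and 8.49 in WT mice on HFD and 6.56 to 6.76 in WT mice on ND. Since the ND levels lay near the array background, its rise is a bound, at least 2.21-fold. In EKO mice on HFD Mstn had 6.51 to 6.89, Nedd4l 10.17 to 10.30 and Pmepa1 11.81 to 12.35, against 7.19 to 8.49, 10.94 to 11.30 and 12.45 to 12.87 in WT mice on HFD. Mean levels in EKO mice on HFD and ND were 12.19 and 11.79 for Pmepa1, 10.24 and 10.03 for Nedd4l, and 6.70 and 6.60 for Mstn. None of these passed for diet in EKO. The difference between the diet effects for Pmepa1, EKO minus WT, was -0.43 ± 0.24 (log2), adjusted p = 0.579 (limma). Of the 28 genes 3 were lower and 0 higher in EKO on HFD, where 4.05% of all genes were lower and 1.64% higher. These were Nedd4l, Mstn and Ret, the receptor kinase used by GDF15 in the brainstem (-0.77 ± 0.19, log2).

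Of the 28 target genes, 6 rose in WT mice on HFD and 0 fell, where 3.19% of all genes rose and 2.3% fell. Their median log2 fold change was 0.20, against -0.02 over all genes. It was above 0 for 21 and below 0 for 7, the lowest being Tagln with -0.62, which did not pass. Lox, which encodes a collagen crosslinking enzyme, had levels (log2) of 11.03, 11.32 and 11.46 in WT mice on HFD, against 10.23, 9.96 and 10.56 in WT mice on ND. The groups were apart, and Lox rose by 1.03 ± 0.25 (log2). The cell cycle inhibitor gene Cdkn2b rose by 0.84 ± 0.22, the matrix gene Postn by 0.82 ± 0.19 and Id2, a BMP-responsive regulator, by 0.78 ± 0.20. The other Id genes of the list did not pass and did not all move the same way. Their WT mean levels (log2) on HFD and ND were 9.39 and 9.60 for Id1, 9.50 and 9.21 for Id3, and 8.03 and 8.17 for Id4. In EKO mice 0 of the 28 passed for diet, with a median of -0.05. On HFD, 7 of the 28 were lower in EKO than in WT and 0 higher, where 4.05% of all genes were lower and 1.64% higher. Their median log2 fold change was -0.32, against 0.03 over all genes. Lox was the furthest, with 9.23, 9.47, 9.62 and 9.68 in EKO mice on HFD and a log2 fold change of -1.77 ± 0.23. The collagen gene Col3a1 was lower by a log2 fold change of -0.63 ± 0.17. Many of these targets also respond to other signals.

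**Figure D4:**
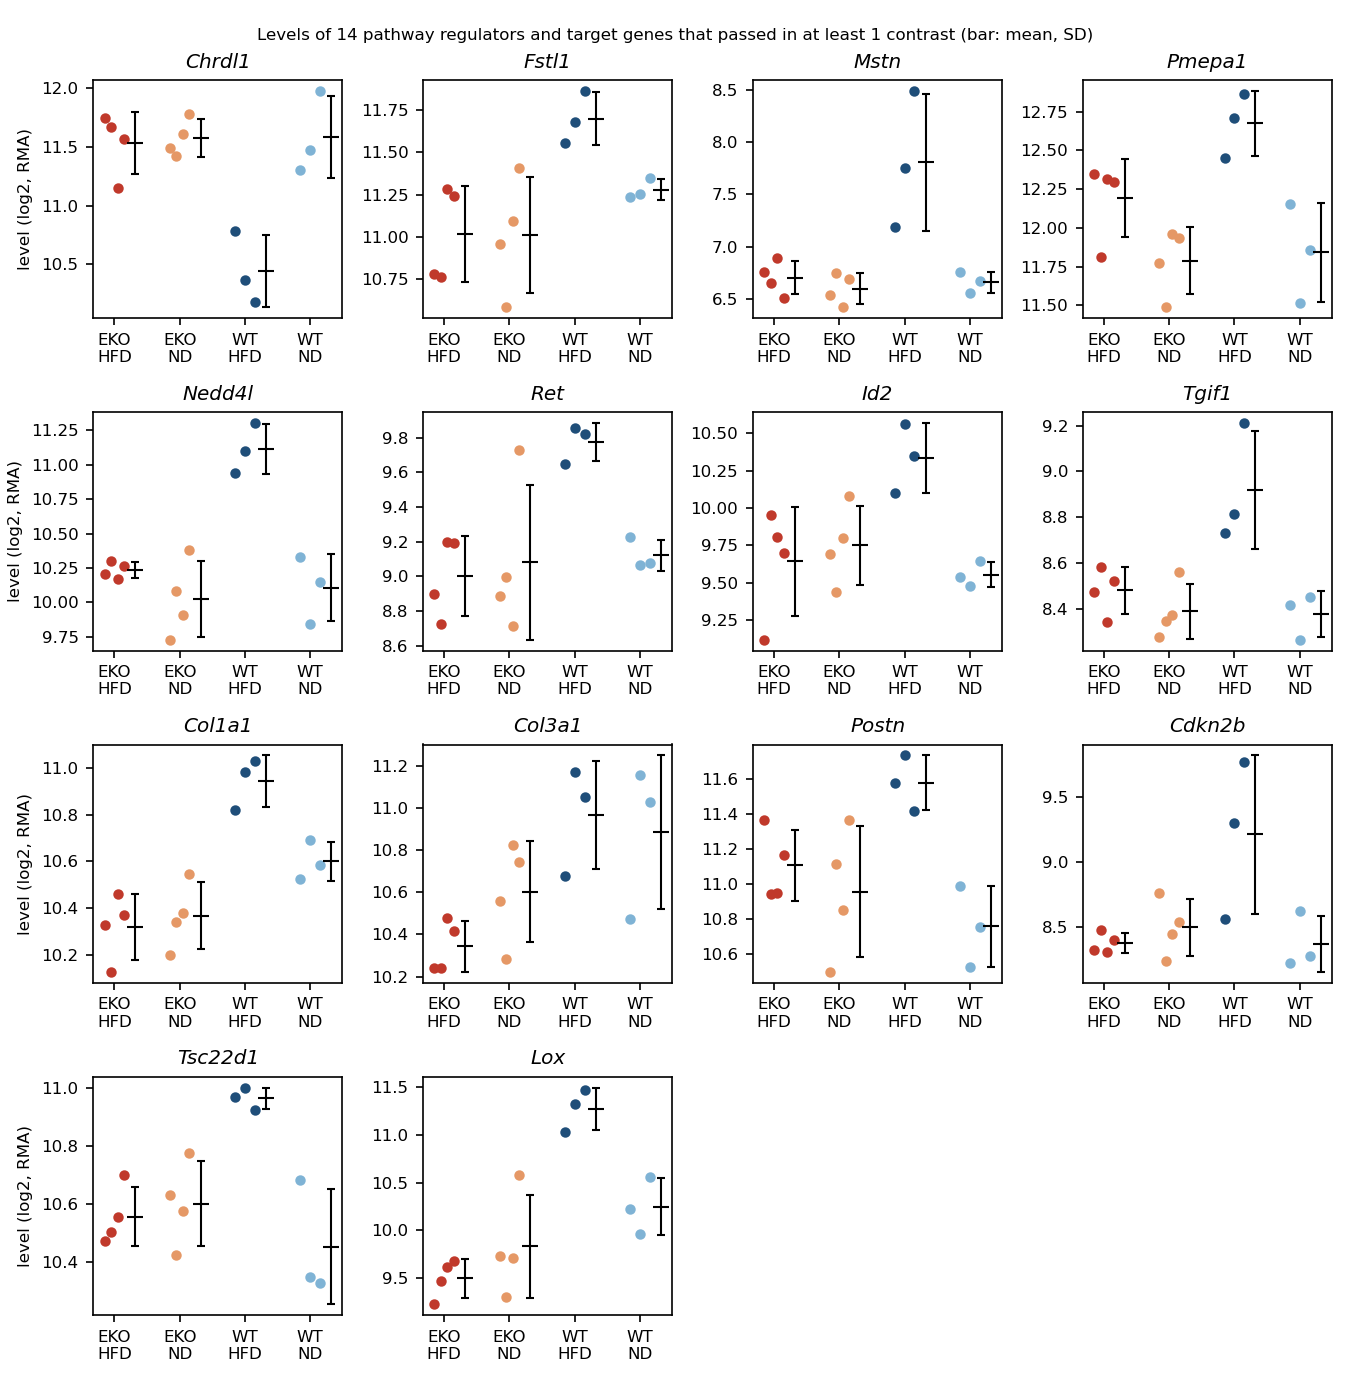
Levels (log2, RMA) on each of the 14 arrays, with the mean and SD, of the 14 regulators and target genes that passed in at least 1 comparison. In WT mice on HFD Chrdl1 is the low one, at 10.17 to 10.78, while the other 13 have their highest group mean there.

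Markers of other cell types moved in the same comparisons. Some genes are shared between lists. Col1a1 and Col3a1 are target genes and fibroblast markers, and Acta2 and Tagln are target genes and smooth muscle markers. Dcn and Eng are also on a pathway list and a marker list. In WT mice on HFD 3.19% of all genes rose and 2.3% fell. Between the genotypes on HFD 1.64% of all genes were higher in EKO and 4.05% lower. The mean level (log2) of 18 macrophage markers was 10.06 to 10.41 in EKO mice on HFD, against 9.70 to 10.53 in EKO mice on ND, and 10.83 to 11.27 in WT mice on HFD, against 10.01 to 10.22 in WT mice on ND. Of these, 10 rose and 1 fell in WT mice on HFD, from Mertk (log2 fold change -0.77) to Gpnmb (2.24), and 10 were lower in EKO than in WT on HFD. Markers of dividing cells had 7.94 to 8.72 in WT mice on HFD, against 7.40 to 7.50 in WT mice on ND. The 12 adipocyte markers other than Acvr1c had 13.02 to 13.12 in WT mice on HFD, against 13.17 to 13.22 in WT mice on ND, a median log2 fold change of -0.13, with 3 lower and 0 higher. Mesothelial markers had 8.99 to 9.14 in WT mice on HFD, against 9.81 to 10.34 in WT mice on ND, and 9 of 11 fell. EKO mice on ND had 9.26 to 9.82. On ND all 11 had a lower mean in EKO than in WT (median log2 fold change -0.43). None of the 11 passed on ND, and 7 had an unadjusted p under 0.05 (limma), against 1.13% of all genes. Between the genotypes on HFD, 2 of the 11 mesothelial markers were higher in EKO and 0 lower (median log2 fold change 0.55), with mean levels of 9.49 to 9.79 in EKO mice. All 9 dividing cell markers were lower in EKO, where their mean level was 7.41 to 7.66. Of the 12 adipocyte markers 3 were higher and 1 lower in EKO (mean level 13.09 to 13.25), and of 12 fibroblast and progenitor markers 0 were higher and 4 lower. Their part in the WT diet results and in the genotype results on HFD was not tested.

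The mean level (log2) of the smooth muscle and pericyte markers was 9.34 to 9.65 in EKO mice on HFD, against 9.58 to 9.92 in EKO mice on ND, and 9.32 to 9.45 in WT mice on HFD, against 9.55 to 9.74 in WT mice on ND. The median log2 fold change of the 10 genes was -0.28 in EKO, where 0 passed, and -0.27 in WT, where 1 fell and 0 rose. Endothelial markers had median log2 fold changes of 0.01 in EKO and -0.14 in WT, with 0 of 10 passing in either. On HFD all 10 had a higher mean in EKO than in WT, against 11489 of all 19937 genes. Their median log2 fold change between the genotypes was 0.23, and 0 of the 10 passed, where 1.64% of all genes were higher and 4.05% lower. Of 12 fibroblast and progenitor markers 2 rose in WT mice on HFD and 0 fell. Of all genes 3.19% rose and 2.3% fell for diet in WT, and 0% passed for diet in EKO. The part of these cells in the results above was not tested.

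**Figure D5:**
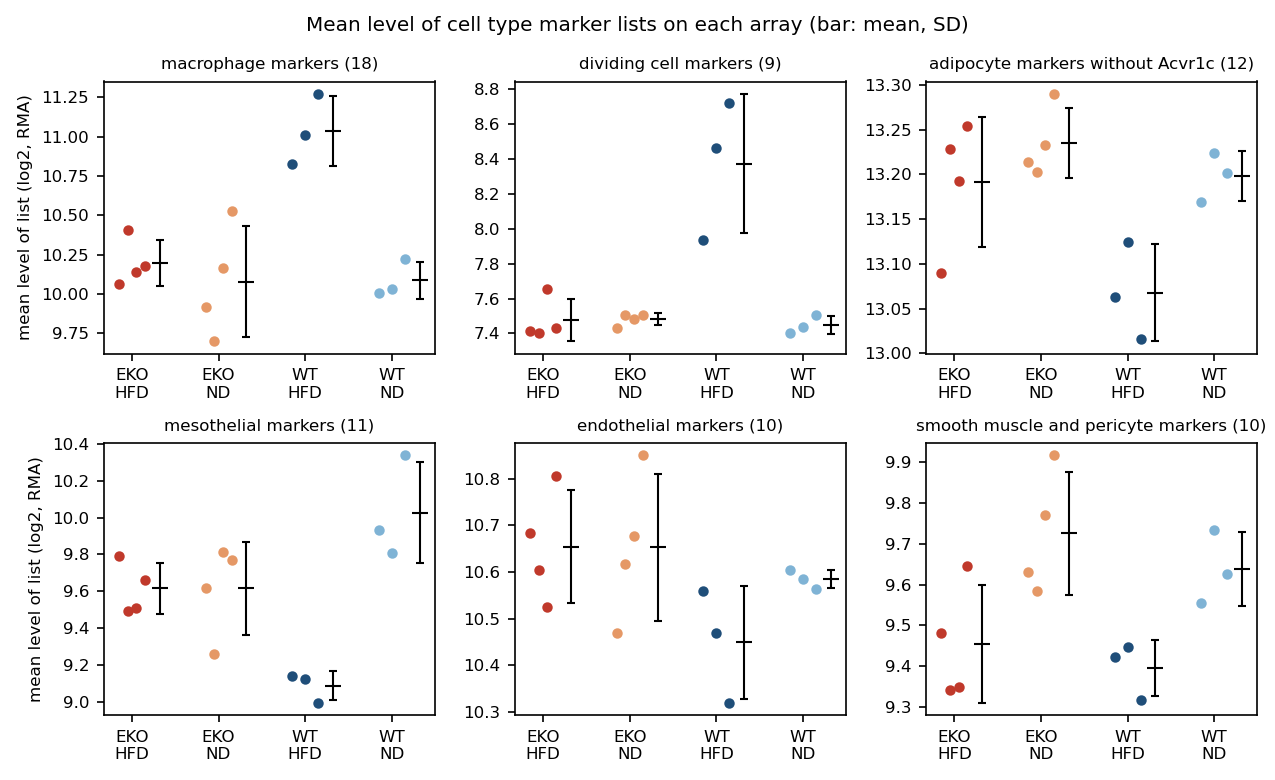
Mean level (log2, RMA) of 6 marker lists on each of the 14 arrays, with the mean and SD of each group; the number of genes is in brackets. Group means of the macrophage and dividing cell lists are highest in WT mice on HFD. Those of the adipocyte, mesothelial, endothelial and smooth muscle and pericyte lists are lowest there. The smooth muscle and pericyte list overlaps between the diets in EKO mice (9.34 to 9.65 on HFD, 9.58 to 9.92 on ND).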

How the data were processed

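RNA of 14 fat pads was hybridised to Affymetrix whole-transcript arrays. The deposited values are log2 values, 1 for each probe set on each array. The submitters' processing notes name RMA, with settings not given in the sources here. Since RMA quantile normalizes the arrays, it would take out a change common to most genes. Of 34760 rows, 21640 have 1 symbol in the platform annotation; for 954 genes with several probe sets the one with the highest mean was kept, which left 19937 genes. No value was rescaled or filtered. A model with 1 mean per group was fitted to all 14 arrays (limma 3.58.1, R 4.3.3; lmFit, eBayes, 10 residual degrees of freedom), p was adjusted by Benjamini-Hochberg over all genes, and the fit was tested on simulated data. The number of arrays limits the precision. The labels call the replicates biological, and arrays of a group correlated at 0.976 to 0.995.

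Values on every array are given for genes that passed in a comparison and, where fewer than 3 did, for those with the 3 smallest p. List genes are named only where they passed, up to 4 per list and comparison, or as the lowest and highest of a list. Id1, Id3 and Id4 are given in addition, beside Id2. Members were taken by a rule on symbols and lists from general knowledge. The rule, the lists and the alternatives were set with earlier results of these data known. The labels do not say that replicate numbers pair samples across groups, so the numbers were not taken to pair animals. Same-numbered arrays of different groups had correlated deviations (r over 0.1) in 12 of 19 pairs (range over the 19 pairs -0.59 to 0.64). The lowest r was between arrays of different background, EKO ND and EKO HFD replicate 2. The highest was between arrays that were both of higher background, WT HFD and EKO HFD replicate 1.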

Additional observations from a re-analysis of the deposited data

Results flagged for a closer look

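Single arrays stood apart in groups of 4 in 7 of 94 gene and group combinations of the 47 genes, where chance flags about 1 in 20. In EKO mice on HFD, Smad9 was 8.35 (log2) on replicate 3, against 8.52 to 8.55 on the others, and Gdf2, the BMP9 gene, was 7.20 on replicate 1, against 6.91 to 6.92. In EKO mice on ND, replicate 2 stood apart for Bmpr1a (10.70, against 11.21 to 11.28), Tgfbr1 (9.14, against 9.60 to 9.65) and Bmpr1b (6.25, against 5.91 to 5.94). That array and the ones named for Smad9 and Gdf2 belong to the 5 of higher background, while those named next do not. Acvr1c was 11.97 on replicate 3, against 11.40 to 11.49, and Tgfb1 was 10.11 on replicate 4, against 9.73 to 9.79.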

How the results depend on the processing

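The numbers of the 47 genes that passed were 5 for diet in WT, 5 for genotype on HFD and 0 for the other comparisons, and they were recomputed under 25 alternatives (24 for the interaction). Array weights gave 23 for diet in WT, 21 for genotype on HFD and 7 for the interaction, beside 5224, 6789 and 2338 of all genes. The background block gave 8, 8 and 2, quantile normalization 8 for genotype on HFD and 2 for the interaction, and the arrays of lower background 2 for the interaction. Leaving out the dimmest 50% of genes gave 3 for genotype on HFD, where 26 of the 47 were still tested, and fitting only the 6 WT arrays gave 1 for diet in WT. With the replicate number as a block 5 passed for diet in WT, 8 for genotype on HFD and 0 for the interaction; 5 of 14 arrays correlated best with an array of their own number. Leaving out 1 array gave 1 to 6 for diet in WT, 1 to 7 for genotype on HFD, 0 to 3 for the interaction and 0 to 0 for the others. The cause of these shifts was not tested, apart from the smaller sets of genes or arrays. No log2 fold change of the 19 gene and comparison pairs named by rule changed sign. Acvr1c for diet in WT passed in 25 of 25 alternatives (-1.29 to -0.97) and Smad9 for genotype on HFD in 24 of 24 (0.44 to 0.55). Gdf3, Tgfb3, Tgfbr3 and Bmp4 for diet in WT passed in 22 of 24, 20 of 25, 20 of 25 and 12 of 25. For genotype on HFD, Tgfb1, Gdf3, Acvr1c and Bmp7 passed in 24 of 25, 22 of 24, 19 of 25 and 16 of 24. For the interaction, Smad9, Acvr1c and Bmp7 passed in 5 of 23, 5 of 24 and 1 of 23.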
